A study of Mus musculus with 12 samples.

Results

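RNA of naïve CD8+ T cells was followed for 61 genes of the lysosome and of autophagy, out of 14323 gene symbols in the count table. The rule that chose them used gene names and no measured values, although it was set with earlier results of these data known. They were the subunits of the vacuolar proton pump (symbols starting with Atp6v or Atp6ap), the cathepsins (Cts and 1 letter), the numbered Atg genes, and Lamp1, Lamp2, Ulk1, Gabarap, Gabarapl1, Gabarapl2, Map1lc3a, Map1lc3b, Sqstm1, Becn1, Wipi1, Wipi2 and Tfeb. By role they fell into 12 cathepsins, 2 lysosome membrane proteins, 11 subunits of the pump's V1 sector, 6 of its V0 sector, 2 accessory subunits, 10 genes of autophagy initiation and membrane supply, 11 genes of the conjugation of ATG8 proteins, 6 genes for ATG8 proteins and a cargo receptor, and 1 transcription factor.

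Spleens of 3 wild type mice gave the cells, which were sorted as TCRβ+CD8+ cells with CD62L and without CD44. Antibodies coated on the plate acted on 100000 cells in each well for 6 h. There were 2 groups without anti-CD3 (unstimulated isotype and unstimulated anti-LAIR-1) and 2 with it (anti-CD3 isotype, and anti-CD3 together with anti-LAIR-1), each with 3 libraries, 1 per mouse. Anti-CD3 (2.5 µg/ml, clone 145-2C11) binds the T cell receptor complex and activates the cell, anti-LAIR-1 (2.5 µg/ml, clone 2C7) is an agonist of the inhibitory collagen receptor LAIR-1, and isotype control antibody took the place of either one. Each library was a well of sorted cells from 1 animal, so that cells from the same 3 animals stood behind all 4 groups. The age, sex and strain of these mice were not given in the labels.

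Lysosomes digest proteins, lipids and organelles with acid hydrolases, among them the cathepsin proteases, and the vacuolar proton pump (V-ATPase) keeps their interior acidic. In autophagy, the ULK1 complex and the ATG14 and beclin 1 containing lipid kinase start a membrane, ATG9A and ATG2 proteins feed it with lipid, and conjugation enzymes couple ATG8 proteins (the LC3 and GABARAP families) to it before it fuses with lysosomes. TFEB is a transcription factor that binds E-boxes in the promoters of many lysosome and autophagy genes and is kept out of the nucleus by the kinase mTORC1. Naïve T cells use autophagy for survival, and activated T cells turn on mTORC1.

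Because the E-box is the DNA element that TFEB is known to bind, the promoters of the genes were searched for it. A window from 250 bases before to 50 bases after the transcription start (RefSeq, GRCm38.p6) was present for 48 of the 61 genes. The windows of Ctsb, Ctse, Ctsw, Map1lc3a, Atp6v0a2, Atp6v0d2, Atp6v1b2, Atp6v1c1, Atp6v1g1, Atp6v1h, Becn1, Atg12 and Atg16l1 were not used here. Some genes had windows at more than 1 start, and a gene counted if any of its windows had the motif. The letters CACGTG, the same on both strands, occurred in 13 of the 48 (27.1%), against 8.09% of 27025 genes with a window of this length and 11.4% of the 10468 of them in the count table. The longer form TCACGTGA, which contains the former, occurred in 6 of 48 (12.5%), against 1.12% and 2.13%. The bases just before the start are shown for 5 of the 13 genes, chosen as examples of those that fell (Ctsd, Ctsa), rose (Atg3, Atp6v0b) or did not pass (Lamp1) with anti-CD3, and chosen after their values were seen. Each runs 5′ to 3′ on the strand of the gene over 150 bases and ends at the base before the start, with CACGTG in capitals. They lie at chr7:142387828-142387977 (Ctsd, minus strand), chr2:164833623-164833772 (Ctsa, plus strand), chr16:45158679-45158828 (Atg3, plus strand), chr4:117887330-117887479 (Atp6v0b, minus strand) and chr8:13159011-13159160 (Lamp1, plus strand). Ctsa also had a window at another start, with chr2:164832722-164832871 just before it, and that window had 0 copies of CACGTG.
Ctsd: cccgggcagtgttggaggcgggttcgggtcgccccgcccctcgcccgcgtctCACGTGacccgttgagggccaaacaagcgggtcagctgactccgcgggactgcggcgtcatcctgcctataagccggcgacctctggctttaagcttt
Ctsa: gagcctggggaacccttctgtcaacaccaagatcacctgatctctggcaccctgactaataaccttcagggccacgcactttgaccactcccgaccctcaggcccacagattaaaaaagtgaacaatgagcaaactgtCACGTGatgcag
Atg3: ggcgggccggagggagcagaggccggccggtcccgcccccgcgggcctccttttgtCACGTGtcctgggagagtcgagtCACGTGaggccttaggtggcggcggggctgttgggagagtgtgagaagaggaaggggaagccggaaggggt
Atp6v0b: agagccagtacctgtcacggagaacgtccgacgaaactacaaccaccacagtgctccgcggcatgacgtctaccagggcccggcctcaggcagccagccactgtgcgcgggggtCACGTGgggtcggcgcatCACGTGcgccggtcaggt
Lamp1: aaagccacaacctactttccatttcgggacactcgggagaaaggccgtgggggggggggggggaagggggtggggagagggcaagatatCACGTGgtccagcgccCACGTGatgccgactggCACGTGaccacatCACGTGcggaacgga

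The other genes with CACGTG in the window were Atp6v0d1, Atp6v0e, Atp6v1a, Atg5, Atg7, Atg14, Ctsf and Ctsl. Genes with every kind of response had the motif. Of genes that rose with anti-CD3 in isotype wells 3 of 7 had it, of genes that fell 5 of 20, and of genes tested that passed neither way 4 of 12. Lamp1, which encodes the major membrane glycoprotein of lysosomes, had 4 copies and did not pass. A site of FOXO factors, GTAAACA on either strand, was found for 0 of the 48 genes. It was found for 4.05% of all genes with a window and 3.21% of those in the count table. This says only that these letters are not in the windows searched.

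Library totals ranged from 1781218 to 7725545 counts, so that 3 counts in a library were worth 0.388 to 1.68 CPM (counts for every 1000000 counts of the library, here before scaling). Such limits cover counting error only. Totals differed between groups. Without anti-CD3 they were 1781218 to 2957929 (isotype) and 3547294 to 3589194 (anti-LAIR-1). With anti-CD3 they were 3478294 to 6555730 and 4889990 to 7725545. Mitochondrial genes took 17.6 to 20.9% of the counts without anti-CD3 and 11.5 to 13.2% with it. CPM are shares of a library, so that a fall need not be less RNA per cell. The 61 genes took 0.430 to 0.457% of the counts in the unstimulated libraries and 0.330 to 0.365% in the libraries with anti-CD3, without overlap. Markers of CD8+ T cells were detected throughout but moved with the groups. The 6 markers summed to 3276 to 3846 CPM in unstimulated isotype, 3441 to 3711 CPM in unstimulated anti-LAIR-1, 1693 to 1812 CPM in anti-CD3 isotype and 1979 to 2162 CPM in anti-CD3 anti-LAIR-1, so that both groups with anti-CD3 were below both without and did not overlap each other. Cd8a moved less than this sum, from 402 to 442 CPM to 319.6 to 382 CPM in isotype wells. Early genes of T cell receptor signalling (8 genes) summed to 257 to 294 CPM in unstimulated isotype and 2644 to 2956 CPM in anti-CD3 isotype. They had 269 to 291 CPM in unstimulated anti-LAIR-1 and 2376 to 2763 CPM in anti-CD3 anti-LAIR-1. This checked the labels of anti-CD3 and not those of anti-LAIR-1. The summed level of 5 myeloid markers moved with anti-CD3 in isotype wells, from 8.57 to 15.6 CPM to 16.3 to 20.9 CPM. Nearly all of this was Cebpb, which T cells also use, and the defining markers Csf1r, Cd14, C1qa and Itgam had at most 1.63 CPM in any library. The 6 B cell markers summed to 6.29 to 12.4 CPM and 3.06 to 4.53 CPM in the same groups, and the part of other cells in the results was not tested. In such bulk samples fewer cells of a type and less RNA per cell cannot be told apart.

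To describe the response to activation, anti-CD3 isotype was compared with unstimulated isotype. Most genes of the lumen and of the start of autophagy fell, while the proton pump and conjugation genes were mixed. Of 51 genes with enough counts for a test, 10 rose and 26 fell by edgeR's quasi-likelihood test (Benjamini-Hochberg adjusted p under 0.05 over all genes tested, as for every call here). This is 70.6% of the genes, against 71.3% of all 8690 genes tested, so that the share called was that of any gene. By direction, 35.3% of all genes rose and 36.1% fell. The median log2 fold change was -0.53 over the 51 genes and -0.03 over all genes. Scaling by the upper quartile moved the median of all genes to -0.20 and that of the 51 genes to -0.70. The median of the genes was -0.34 without unstimulated isotype of mouse 2 and -0.23 over genes with at least 10 counts in every library.

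In wells with anti-LAIR-1, anti-CD3 gave 15 genes that rose and 24 that fell, of 52 tested (75%), against 72.7% of 9000 genes, with 36.4% of all genes higher and 36.3% lower. The median log2 fold change was -0.35 over the 52 genes and -0.04 over all genes. With the upper quartile, the split was 11 higher and 30 lower, and the medians were -0.56 and -0.24. These libraries are not those of the isotype comparison, although the mice were the same. All 10 genes that rose with isotype also rose with anti-LAIR-1, where they were 66.7% of the 15. Of the genes that fell, 23 were shared, which were 88.5% of the isotype list and 95.8% of the anti-LAIR-1 list. Over all genes, shared rises were 93.1% of the isotype list and 87.1% of the anti-LAIR-1 list. Shared falls were 87.9% and 84.3%. No gene of the set was called in opposite directions. Such calls were rare over all genes too, with 2 of the 3065 that rose with isotype and 0 of the 3134 that fell. Genes called in 1 setting alone are not shown to differ between the settings, since the interaction, given further below, passed for none of them.

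**Figure D1:**
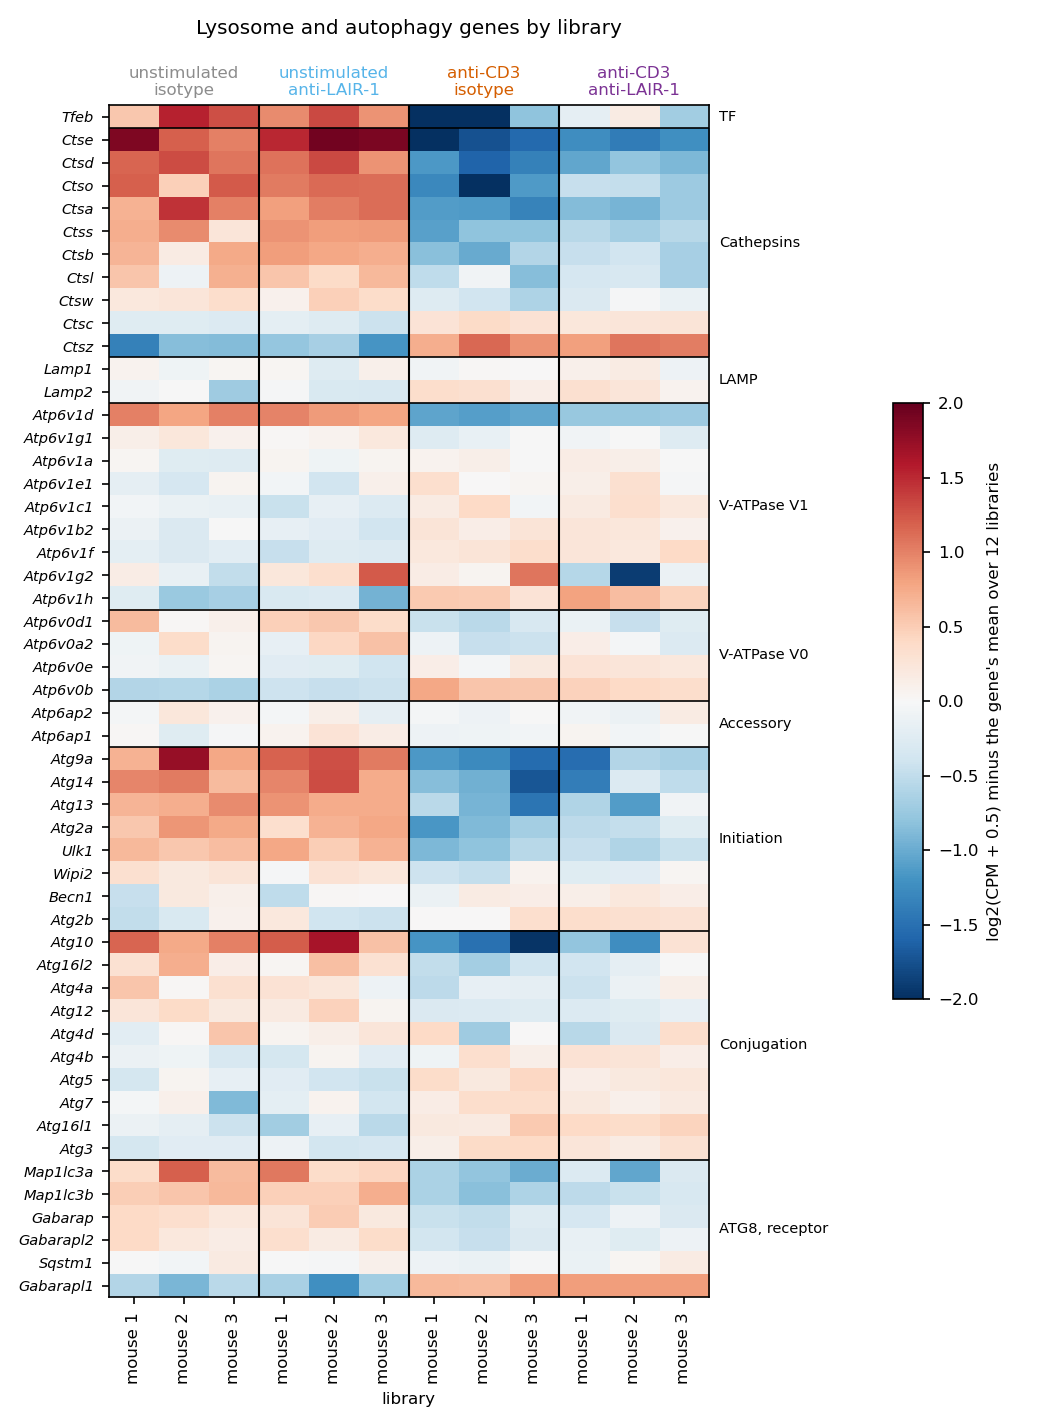
Heat map of the 52 genes tested over the 12 libraries (columns), grouped by role (TF: transcription factor). Colours give log2(CPM + 0.5) minus the mean of the gene over all libraries, with colours ending at -2 and 2. Most cathepsin and initiation genes are high in the 6 unstimulated libraries and low in the 6 libraries with anti-CD3, while Ctsz and Gabarapl1 show the opposite.

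Tfeb, the transcription factor of the set, had 3.64, 7.76 and 6.47 CPM in the 3 unstimulated isotype libraries (mouse 1, 2 and 3, the order of all triplets below). In anti-CD3 isotype it had 0, 0 and 1.13 CPM, the last from 7 counts, and the libraries at 0 allow up to 0.907 and 0.636 CPM. With anti-LAIR-1 it had 4.99, 6.63 and 4.82 CPM without anti-CD3 and 2.02, 2.70 and 1.27 CPM with it. All unstimulated libraries were thus above all anti-CD3 libraries. The log2 fold change with anti-CD3 was -3.54 (SE 0.66, adjusted p 4.5e-05, edgeR) with isotype and -1.42 (SE 0.36, adjusted p 0.00172) with anti-LAIR-1. Each anti-CD3 anti-LAIR-1 library was above each anti-CD3 isotype library, but in mouse 3 only by 1.27 against 1.13 CPM, from 6 and 7 counts. Tfeb had too few counts for the main test between these groups. It passed in 0 of the 5 alternatives that could fit it there. The difference between both changes with anti-CD3, tested as an interaction, was 2.11 (SE 0.83) and did not pass (adjusted p 0.253, edgeR). These values rest on few counts and on 1 library. Without anti-CD3 isotype of mouse 3 the other libraries of that group were at 0, the fitted change with isotype went to -7.18, and the interaction went to 6.15 and passed (adjusted p 0.0268, edgeR). Fitted values against libraries at 0 depend on the prior count and are no bound.

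Of the 12 cathepsins, 10 were tested and all 10 changed with anti-CD3 in both settings, 8 lower and 2 higher. Of all genes, 71.3% were called with isotype (36.1% lower) and 72.7% with anti-LAIR-1 (36.3% lower). Ctse and Ctsd encode the aspartic proteases cathepsin E and D. Ctse had 23.8, 14.7 and 12.9 CPM in unstimulated isotype and 0.907, 1.48 and 1.77 CPM in anti-CD3 isotype. In the anti-LAIR-1 wells it had 18.3, 24.7 and 24.1 CPM and, with anti-CD3, 2.29, 2.03 and 2.33 CPM. The ranges were far apart, and the log2 fold change was -3.59 (SE 0.37, adjusted p 6.7e-09, edgeR) with isotype and -3.33 (SE 0.25) with anti-LAIR-1. Ctsd had 53.0, 58.8 and 49.6 CPM in unstimulated isotype and 10.3, 7.42 and 8.85 CPM in anti-CD3 isotype. In the anti-LAIR-1 wells it went from 50.4, 59.2 and 44.2 CPM to 11.1, 13.3 and 12.3 CPM. Its level with anti-CD3 was 0.159 of the unstimulated level with isotype (log2 fold change -2.65, SE 0.19, adjusted p 9.8e-12, edgeR) and 0.237 with anti-LAIR-1.

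The other cathepsins that fell were cysteine proteases and a serine carboxypeptidase. Ctsa, the carboxypeptidase that also shields other lysosomal enzymes, changed by -2.35 (SE 0.19) on the log2 scale with isotype and by -1.87 (SE 0.13) with anti-LAIR-1. Ctso changed by -2.59 (SE 0.28) and -1.69 (SE 0.17), Ctss by -1.60 (SE 0.15) and -1.47 (SE 0.09), and Ctsb by -1.39 (SE 0.14) and -1.29 (SE 0.10). Smaller falls were seen for Ctsl, which fell by 0.94 (SE 0.28) and 1.00 (SE 0.20), and for Ctsw, a cathepsin of cytotoxic lymphocytes (-0.73, SE 0.16, and -0.48, SE 0.13). In contrast, Ctsz rose from 5.63, 8.16 and 8.09 CPM to 25.4, 34.1 and 28.5 CPM with isotype, and from 8.59, 9.29 and 6.42 CPM to 27.0, 32.1 and 31.1 CPM with anti-LAIR-1. Ctsz thus changed by 2.00 (SE 0.24, adjusted p 9.1e-08, edgeR) and 1.88 (SE 0.19) on the log2 scale. Ctsz encodes a carboxypeptidase of the cysteine type. Ctsc, which activates granzymes by trimming them, rose by 0.54 (SE 0.11) and 0.53 (SE 0.09). Ctsf and Ctsk had at most 8 counts in any library and were not tested.

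Lamp1 and Lamp2 encode abundant glycoproteins of the lysosomal membrane. Lamp1 had 224, 201 and 219 CPM in unstimulated isotype and 203, 216 and 214 CPM in anti-CD3 isotype. The ranges overlapped, with a log2 fold change of -0.06 (SE 0.09, adjusted p 0.586, edgeR) with isotype and 0.09 (SE 0.10) with anti-LAIR-1. With the upper quartile, which shifted the median of all genes down, Lamp1 passed as lower with isotype (-0.24, adjusted p 0.0301). Lamp2, whose product also serves chaperone-mediated autophagy, had 22.2, 23.3 and 14 CPM without and 29.9, 29.2 and 25.6 CPM with anti-CD3 in isotype wells. Its change was 0.44 (SE 0.20, adjusted p 0.0520, edgeR), and it passed with the mouse as a block (adjusted p 0.0340). In anti-LAIR-1 wells Lamp2 went from 23.0, 18.8 and 18.7 CPM to 29.4, 27.7 and 24.6 CPM, a change of 0.43 (SE 0.16) that passed (adjusted p 0.0184, edgeR). Both results hung on single libraries. With anti-LAIR-1, Lamp2 did not pass without unstimulated anti-LAIR-1 of mouse 2 (0.38) or 3 (0.39) or anti-CD3 anti-LAIR-1 of mouse 1 (0.39), nor with the upper quartile (0.23) or library totals alone (0.32), and with isotype it passed without unstimulated isotype of mouse 2 or anti-CD3 isotype of mouse 3 (0.54 each).

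**Figure D2:**
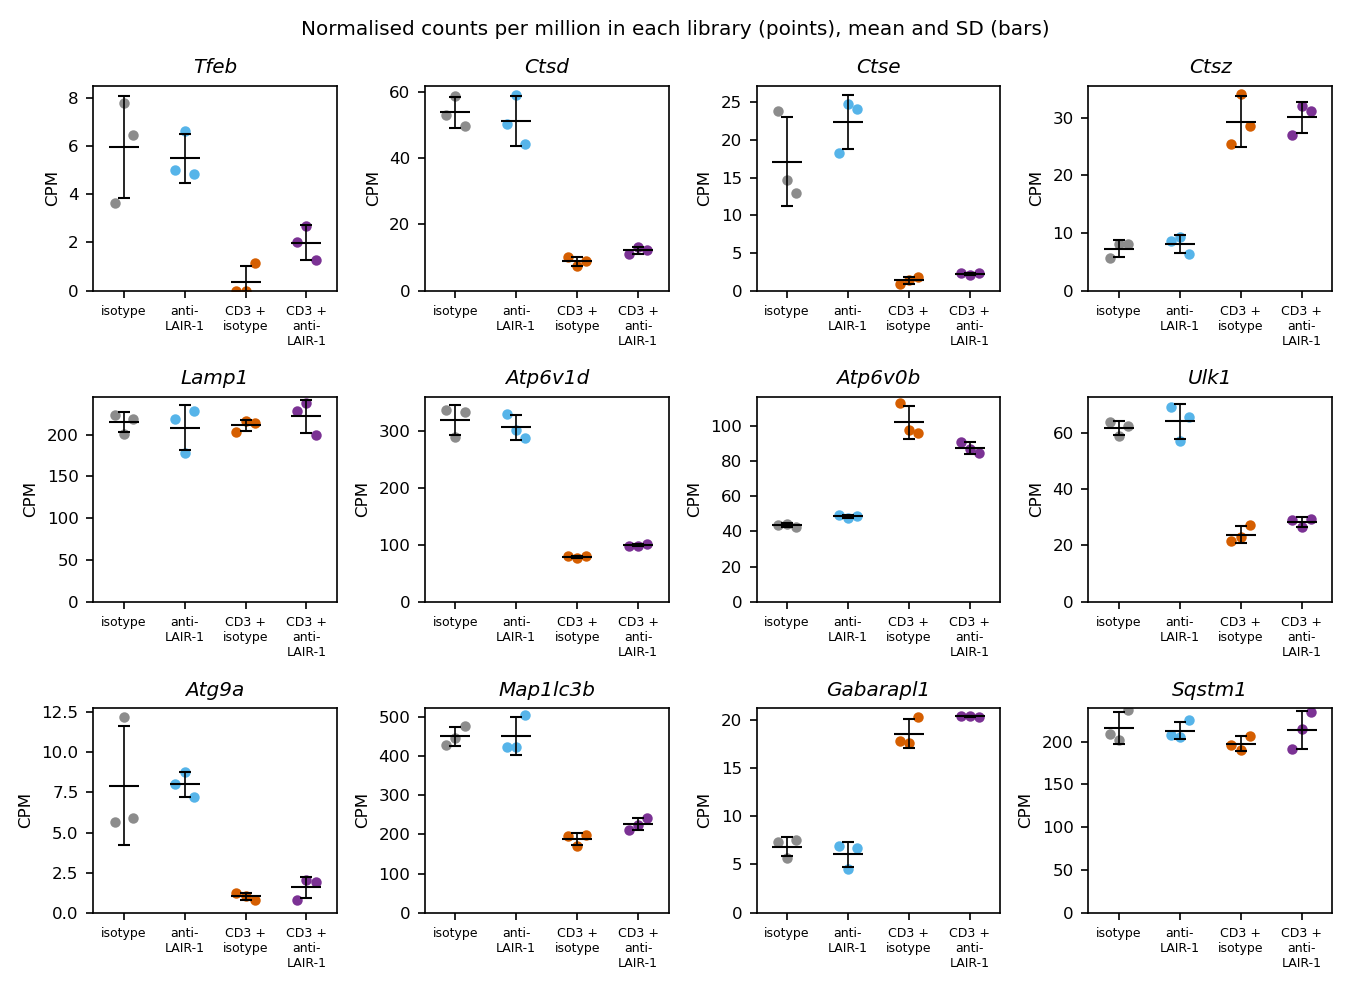
CPM of 12 of the genes in each library, with a linear axis from 0, in the order isotype then anti-LAIR-1, first unstimulated and then with anti-CD3. Points are the 3 mice and bars the mean and SD. Ctsd, Ctse, Atp6v1d, Ulk1, Atg9a and Map1lc3b are lower in every library with anti-CD3 than in any without, Ctsz, Atp6v0b and Gabarapl1 are higher, and the ranges of Lamp1 and Sqstm1 overlap.

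The V-ATPase consists of a V1 sector that splits ATP and a V0 sector in the membrane that carries protons. With isotype, 3 of the 9 tested V1 genes rose and 2 fell, and of the 4 tested V0 genes 1 rose and 1 fell. The shares called were 55.6% for V1 and 50% for V0, against 71.3% of all genes. The strongest change was that of Atp6v1d, the D subunit of the central rotor. It had 336, 289 and 334 CPM in unstimulated isotype and 80.1, 77.4 and 80.7 CPM in anti-CD3 isotype. In anti-LAIR-1 wells it went from 330.4, 302 and 287 CPM to 98.6, 98.0 and 101 CPM. The log2 fold change was -2.04 (SE 0.10, adjusted p 1.8e-14, edgeR) with isotype and -1.63 (SE 0.08, adjusted p 1.6e-12) with anti-LAIR-1, the lowest adjusted p of any of the genes in both comparisons. Atp6v1h, the regulatory H subunit, went the other way, from 40.0, 28.2 and 29.7 CPM to 68.0, 67.6 and 57.6 CPM with isotype and from 38.3, 39.0 and 24.4 CPM to 83.1, 73.3 and 64.6 CPM with anti-LAIR-1. Its change was 0.92 (SE 0.15) and 1.12 (SE 0.15).

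Among the other V1 genes, Atp6v1f rose by 0.48 (SE 0.08) with isotype and 0.61 (SE 0.08) with anti-LAIR-1, and Atp6v1b2, a nucleotide-binding subunit, by 0.33 (SE 0.11) and 0.44 (SE 0.09). With the upper quartile or library totals alone, the rise of Atp6v1b2 with isotype did not pass, nor did it without unstimulated isotype of mouse 2 (0.24). Atp6v1g1, a subunit of the peripheral stalk, fell by 0.31 (SE 0.11, adjusted p 0.0161, edgeR) with isotype, and its value with anti-LAIR-1 was -0.22 (SE 0.10, adjusted p 0.0511). Without anti-CD3 isotype of mouse 1 (-0.23) or 2 (-0.27) the fall of Atp6v1g1 did not pass. Atp6v1c1 passed with anti-LAIR-1 alone, at 0.53 (SE 0.12) against 0.26 (SE 0.15) with isotype. Atp6v1a, the catalytic subunit, and Atp6v1e1 passed in neither, with 0.16 (SE 0.14) and 0.25 (SE 0.14) in isotype wells. Single libraries decided this for Atp6v1c1, which passed with isotype without anti-CD3 isotype of mouse 3 (0.40), and for Atp6v1e1, which passed without unstimulated isotype of mouse 3 (0.34) and, with anti-LAIR-1, without unstimulated anti-LAIR-1 (0.37) or anti-CD3 anti-LAIR-1 (0.34) of mouse 3. Atp6v1g2, a G subunit best known from neurons, was close to the limit of counting. It had 3.64, 2.86 and 2.16 CPM in unstimulated isotype, 3.88, 4.25 and 8.30 CPM in unstimulated anti-LAIR-1, 3.63, 3.39 and 7.40 CPM in anti-CD3 isotype and 2.02, 0.507 and 2.97 CPM in anti-CD3 anti-LAIR-1. It fell with anti-CD3 in anti-LAIR-1 wells (-1.61, SE 0.46, adjusted p 0.00428, edgeR) and not with isotype (0.71, SE 0.44). Without unstimulated anti-LAIR-1 of mouse 3, the library at 8.30 CPM, the change was -1.18 and did not pass (adjusted p 0.0660, edgeR).

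In the V0 sector, Atp6v0b, a proteolipid of the proton ring, had 43.7, 44.5 and 42.6 CPM in unstimulated isotype and 113, 97.5 and 96.2 CPM in anti-CD3 isotype. With anti-LAIR-1 the values were 49.3, 47.8 and 48.7 CPM without and 91.0, 87.2 and 84.5 CPM with anti-CD3. The rise was 2.28-fold (log2 fold change 1.19, SE 0.13, adjusted p 1.2e-08, edgeR) with isotype and 1.8-fold with anti-LAIR-1. Atp6v0d1, which joins the sectors, went from 65.9, 43.3 and 45.3 CPM to 31.1, 29.0 and 33.8 CPM and from 59.3, 61.6 and 54.9 CPM to 38.6, 30.6 and 35.8 CPM. It fell by 0.77 (SE 0.16) and 0.75 (SE 0.12) on the log2 scale. Atp6v0e passed with anti-LAIR-1 alone, at 0.53 (SE 0.08) against 0.12 (SE 0.10) with isotype, and Atp6v0a2 passed in neither. The accessory genes Atp6ap1 and Atp6ap2 had changes between -0.17 and 0.02 and did not pass, although with the upper quartile Atp6ap2 passed as lower with isotype (-0.35) and Atp6ap1 with anti-LAIR-1 (-0.38). Genes of the same complex thus moved both ways, Atp6v1d and Atp6v0d1 down and Atp6v1h and Atp6v0b up. Atp6v0a1, Atp6v0d2, Atp6v1c2 and Atp6v1g3 had at most 5 counts in any library.

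**Figure D3:**
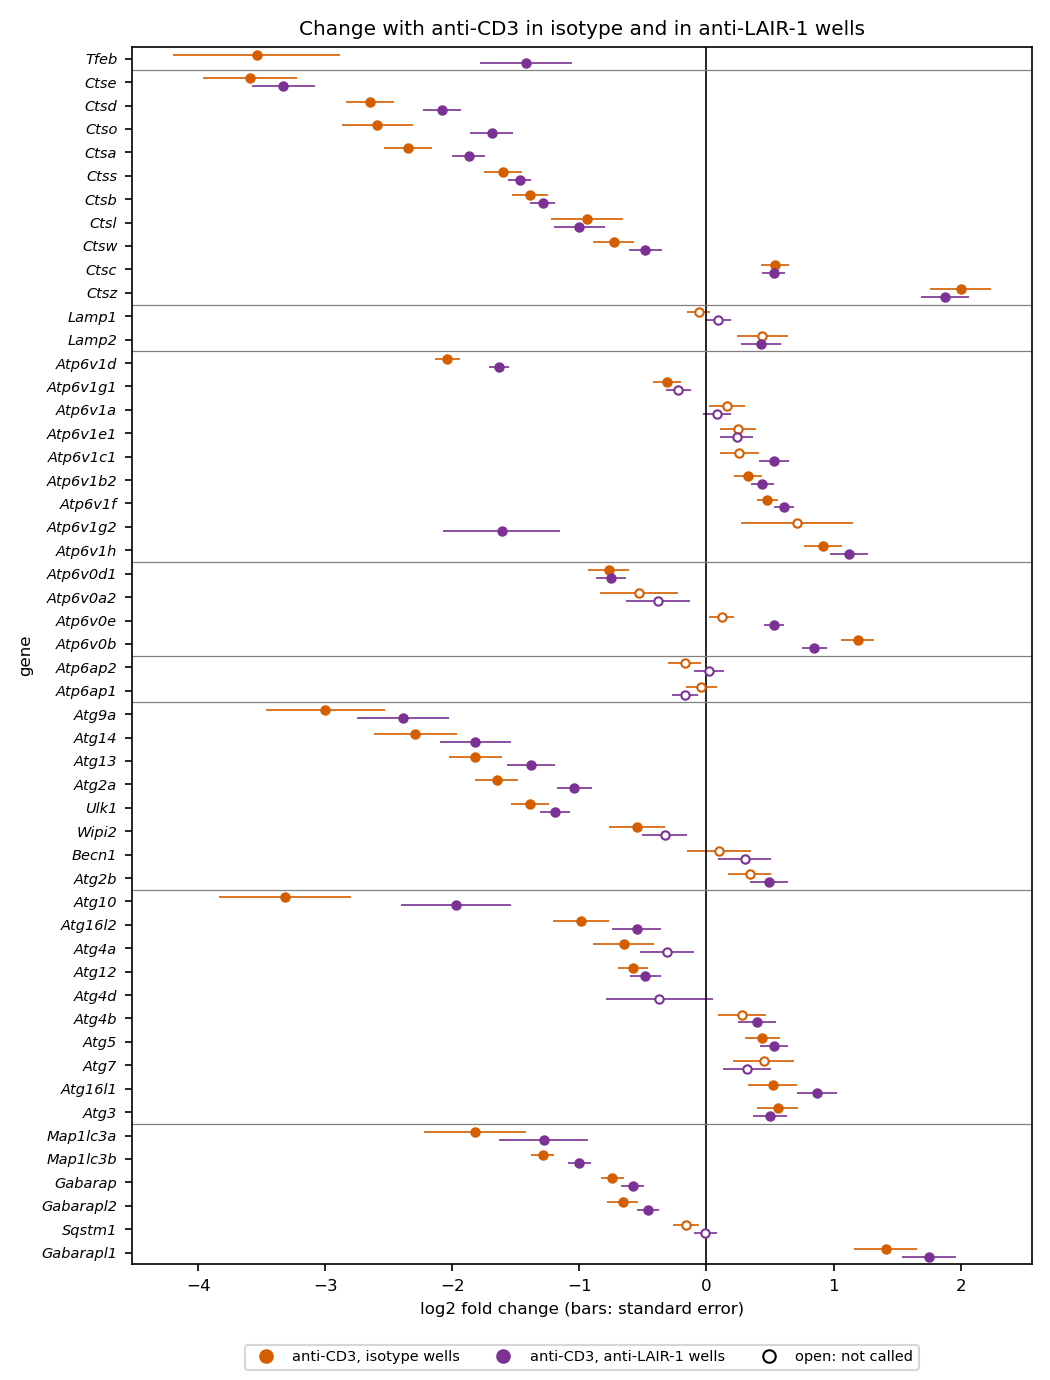
Log2 fold change with anti-CD3 of the genes tested, in isotype wells (orange) and in anti-LAIR-1 wells (purple), grouped by role. Bars are standard errors, and open symbols did not pass at an adjusted p under 0.05. Nearly all genes that fell in both settings fell less in anti-LAIR-1 wells, for instance Ctsd at -2.65 and -2.08, while Atp6v1h and Gabarapl1 rose more, differences for which the interaction did not pass. The same count was not made over all genes.

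Most genes that start autophagosomes fell with anti-CD3. Of 10 genes, 8 were tested, and with isotype 6 fell, while Becn1 and Atg2b did not pass. The share called was 75%, against 71.3% of all genes in either direction and 36.1% that fell. Atg9a, the membrane protein whose vesicles seed the autophagosome, had 5.63, 12.2 and 5.93 CPM in unstimulated isotype and 1.21, 1.06 and 0.804 CPM in anti-CD3 isotype. In anti-LAIR-1 wells it went from 8.04, 8.76 and 7.23 CPM to 0.809, 2.03 and 1.91 CPM. Atg14, which directs the beclin 1 lipid kinase to autophagy, went from 15.2, 15.9 and 11.9 CPM to 3.93, 3.60 and 1.93 CPM, and from 15.2, 19.1 and 12.8 CPM to 2.56, 6.08 and 5.09 CPM. No library with anti-CD3 reached an unstimulated one for either gene. The log2 fold changes were -3.00 (SE 0.47, adjusted p 5.2e-06, edgeR) and -2.39 (SE 0.36) for Atg9a and -2.29 (SE 0.33) and -1.82 (SE 0.28) for Atg14.

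Both genes of the ULK1 complex in the set fell. Ulk1, the kinase itself, had 63.9, 58.8 and 62.5 CPM in unstimulated isotype and 21.5, 22.9 and 27.2 CPM in anti-CD3 isotype, a log2 fold change of -1.39 (SE 0.15, adjusted p 1.3e-08, edgeR). With anti-LAIR-1 its change was -1.19 (SE 0.12). Atg13, its regulatory partner, fell by 1.82 (SE 0.21) and 1.38 (SE 0.19) on the log2 scale. The lipid transfer genes Atg2a and Atg2b differed from each other, with a fall of Atg2a by 1.65 (SE 0.17) and 1.04 (SE 0.14) and values of 0.34 (SE 0.17, adjusted p 0.0783, edgeR) and 0.49 (SE 0.15, adjusted p 0.00709) for Atg2b. Wipi2, which reads the lipid made by the kinase, fell by 0.55 (SE 0.22, adjusted p 0.0302, edgeR) with isotype, a call that DESeq2 did not make (adjusted p 0.0686), and had -0.33 (SE 0.18) with anti-LAIR-1. Its fall did not pass without unstimulated isotype of mouse 1 (-0.51) or anti-CD3 isotype of mouse 1 (-0.45) or 2 (-0.41), and Atg2b passed with isotype without unstimulated isotype of mouse 3 (0.50). Becn1, encoding beclin 1, passed in neither (0.10, SE 0.25, and 0.30, SE 0.21). Wipi1 had at most 2 counts and Atg9b at most 7 in any library.

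The conjugation genes were divided. With isotype 3 of 9 tested genes rose and 4 fell, and with anti-LAIR-1 4 of 10 rose and 3 fell. These shares, 77.8% and 70%, were near the 71.3% and 72.7% of all genes. Atg10, the E2-like enzyme that couples ATG12 to ATG5, had 6.62, 4.90 and 5.93 CPM in unstimulated isotype and 0.907, 0.636 and 0.322 CPM in anti-CD3 isotype, the latter from 3, 3 and 2 counts. With anti-LAIR-1 it went from 6.93, 9.55 and 4.28 CPM to 1.35, 0.845 and 3.39 CPM. The log2 fold changes were -3.32 (SE 0.52, adjusted p 5.1e-06, edgeR) and -1.97 (SE 0.43, adjusted p 4.7e-04). Atg12, the ubiquitin-like protein that it attaches, fell by 0.58 (SE 0.12) and 0.48 (SE 0.12).

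The scaffold ATG16L has a pair of genes, and these moved apart. Atg16l2 went from 21.5, 29.0 and 18.9 CPM to 12.1, 10.6 and 13.0 CPM with isotype and from 17.7, 26.5 and 21.4 CPM to 13.1, 15.2 and 17.2 CPM with anti-LAIR-1. Atg16l1 went from 20.9, 20.0 and 16.7 CPM to 26.0, 25.9 and 33.0 CPM and from 13.9, 20.2 and 15.5 CPM to 30.2, 29.6 and 31.1 CPM. Atg16l2 fell by 0.99 (SE 0.22) and 0.55 (SE 0.19) on the log2 scale, and Atg16l1 rose by 0.52 (SE 0.19) and 0.87 (SE 0.16). With the upper quartile or library totals alone, the rise of Atg16l1 with isotype did not pass. Atg3, the E2-like enzyme for ATG8 proteins, rose by 0.56 (SE 0.16) and 0.50 (SE 0.13), and Atg5 by 0.44 (SE 0.14) and 0.53 (SE 0.11). Some of these calls ended with 1 library left out, that of Atg16l2 with anti-LAIR-1 without unstimulated anti-LAIR-1 of mouse 2 (-0.39) or anti-CD3 anti-LAIR-1 of mouse 1 (-0.43), that of Atg16l1 with isotype without unstimulated isotype (0.44) or anti-CD3 isotype (0.41) of mouse 3, and that of Atg5 with isotype without unstimulated isotype of mouse 1 (0.33).

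Atg7, the E1-like enzyme that serves both couplings, did not pass (0.45, SE 0.24, and 0.32, SE 0.19). Of the ATG4 proteases, which process ATG8 proteins, Atg4b passed with anti-LAIR-1 alone (0.40, SE 0.15, adjusted p 0.0250, edgeR), but not with the upper quartile or library totals alone, and Atg4a with isotype alone (-0.65, SE 0.24, adjusted p 0.0199, edgeR), a call made neither by DESeq2 (adjusted p 0.0533) nor without the filter on low counts (adjusted p 0.0545, edgeR). The call of Atg4b ended without unstimulated anti-LAIR-1 of mouse 1 (0.32) or 3 (0.37) or anti-CD3 anti-LAIR-1 of mouse 1 (0.38) or 2 (0.40), and that of Atg4a without unstimulated (-0.48) or anti-CD3 (-0.53) isotype of mouse 1. The row named Atg4a is placed on chromosome 3 in the table, while the annotation has Atg4a on chromosome X and a retrocopy, Atg4a-ps, on chromosome 3, so that its counts cannot be assigned with certainty. Atg4d did not pass (-0.37, SE 0.42, with anti-LAIR-1), and Atg4c had at most 4 counts.

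Of the 5 ATG8 genes, 4 fell and 1 rose in both settings. With the cargo receptor included, 83.3% were called in each setting, against 71.3% and 72.7% of all genes. Map1lc3a went from 5.30, 9.80 and 6.47 CPM to 2.42, 2.12 and 1.77 CPM with isotype and from 8.87, 5.31 and 5.62 CPM to 3.24, 1.69 and 3.18 CPM with anti-LAIR-1. Gabarapl1 went from 7.28, 5.72 and 7.55 CPM to 17.8, 17.6 and 20.3 CPM and from 6.93, 4.51 and 6.69 CPM to 20.4, 20.4 and 20.3 CPM. The log2 fold changes were -1.82 (SE 0.40, adjusted p 3.4e-04, edgeR) and -1.28 (SE 0.35) for Map1lc3a, and 1.41 (SE 0.25, adjusted p 2.5e-05, edgeR) and 1.75 (SE 0.21) for Gabarapl1. Map1lc3b, the LC3 gene most used as an autophagy marker, went from 428, 447 and 476 CPM to 197, 170.4 and 198 CPM with isotype. It fell by 1.29 (SE 0.09) and 1.00 (SE 0.09), Gabarap by 0.74 (SE 0.09) and 0.58 (SE 0.09), and Gabarapl2 by 0.66 (SE 0.12) and 0.46 (SE 0.09). Gabarapl1 thus moved against its family. Sqstm1, the cargo receptor p62, had 209, 202 and 237 CPM without and 196, 190.3 and 207 CPM with anti-CD3 in isotype wells, with overlapping ranges and a change of -0.16 (SE 0.10, adjusted p 0.150, edgeR). With anti-LAIR-1 its change was -0.01 (SE 0.09). With the upper quartile, which shifted the median of all genes down, Sqstm1 passed as lower in both settings (-0.33 and -0.21), and with library totals alone it did so with isotype (-0.25).

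The tags of this method lie near the 3′ end of transcripts, and whether reads were counted by strand was not stated. Within 500 bases of the annotated 3′ end, Ctsa, Ctsb, Ctsw, Ctsz, Lamp1, Sqstm1, Atg16l2, Map1lc3b, Becn1, Atp6v1e1, Atg4d, Atg9b and Atp6v1c2 overlap a protein-coding gene of the opposite strand, and reads of such pairs could not be told apart without strand. Ctsd, Atg9a and Map1lc3b overlap another annotated gene on the same strand there (Gm49369, Gm29253 and Gm20388), which strand would not resolve, so that their counts are uncertain in this respect. None of these same-strand partners had a row of its own in the count table. Pltp and Grtp1, the partners of Ctsa and Lamp1, had 3 and 1 counts over all libraries. The partner of Ctsz, Nelfcd, did not pass with anti-CD3 in isotype wells (0.05, SE 0.26), nor did the partner of Ctsb, Fdft1 (-0.16, SE 0.24). The partners of Ctsw and Atg16l2, Fibp and Fchsd2, fell by 1.61 (SE 0.23) and 1.40 (SE 0.18), as did the genes themselves.

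To see which genes responded to LAIR-1, anti-CD3 anti-LAIR-1 was then compared with anti-CD3 isotype. Of 49 genes tested, 2 rose and 0 fell, against 5.76% of 8800 genes called in all (3.90% higher, 1.86% lower). The genes were Ctso and Atp6v1d, both of which fell with anti-CD3. Ctso, a cysteine cathepsin, had 5.14, 2.76 and 5.79 CPM with isotype and 9.58, 9.46 and 7.84 CPM with anti-LAIR-1, a log2 fold change of 0.96 (SE 0.27, adjusted p 0.0472, edgeR). Atp6v1d had 80.1, 77.4 and 80.7 CPM and 98.6, 98.0 and 101 CPM, a change of 0.32 (SE 0.08, adjusted p 0.0343, edgeR). The groups did not overlap for either gene, and each was higher in 3 of 3 mice. This adds no support, because both genes were picked by the test on these same libraries. Both calls were near the threshold. DESeq2 made neither call (adjusted p 0.0837 and 0.0598, with 5.07% of all genes called), and with the mouse as a block Atp6v1d passed (adjusted p 0.0418), Ctso did not (adjusted p 0.0555) and Atp6v1g2 passed as lower (-1.43, adjusted p 0.0425), with 6.24% of all genes called. Leaving out any 1 of the 6 libraries ended at least 1 of both calls.

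Over all 49 genes tested, Ctso and Atp6v1d included, the values leaned upwards, and no other gene passed. The median log2 fold change was 0.10 over the 49 genes and 0.00 over all genes, and 39 of the 49 (79.6%) were above 0, against 50.6% of all genes. An unadjusted p under 0.05 was found for 10 of the 49 genes, against 18.8% of all genes. Among the cathepsins, which had a median of 0.29, Ctsd had 0.47 (SE 0.21, adjusted p 0.218, edgeR), Ctsa 0.36 (SE 0.17), Ctsb 0.29 (SE 0.12) and Ctss 0.28 (SE 0.11). In the other groups, Atg2a had 0.46 (SE 0.16, adjusted p 0.104), Ulk1 0.22 (SE 0.14), Map1lc3b 0.25 (SE 0.08, adjusted p 0.0804), Gabarapl2 0.20 (SE 0.09), Gabarap 0.14 (SE 0.08), Map1lc3a 0.39 (SE 0.41) and Atp6v0b -0.22 (SE 0.09, adjusted p 0.188). Close to 0 were Lamp1 (0.06, SE 0.08), Lamp2 (-0.04, SE 0.14), Sqstm1 (0.10, SE 0.08), Becn1 (0.07, SE 0.18), Wipi2 (0.09, SE 0.19) and Gabarapl1 (0.12, SE 0.15). With a median SE of 0.13, shifts of this size could not be resolved for most genes with 3 mice.

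**Figure D4:**
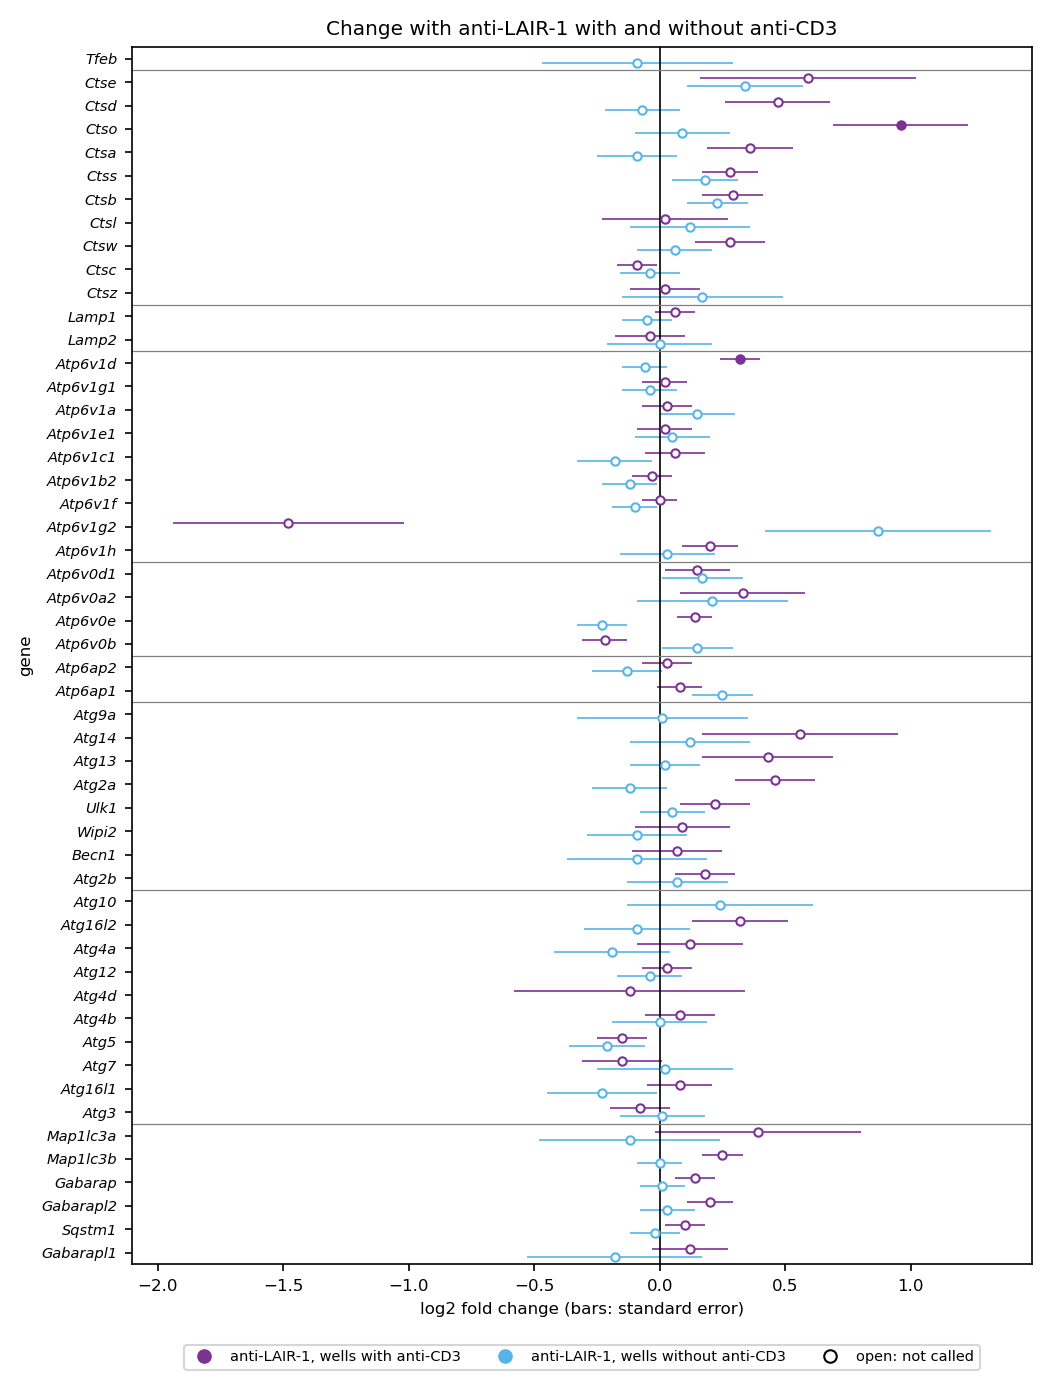
Log2 fold change with anti-LAIR-1 of the genes tested, in wells with anti-CD3 (purple) and without (blue), grouped by role. Bars are standard errors, and filled symbols passed at an adjusted p under 0.05. Ctso at 0.96 and Atp6v1d at 0.32 are the filled symbols, both with anti-CD3, and most cathepsin and initiation genes lie to the right of 0 with anti-CD3.

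Without anti-CD3, anti-LAIR-1 changed none of the 51 genes tested, and 0 of all 8770 genes passed (0%), in edgeR and for the 51 genes also in DESeq2. At an unadjusted p under 0.05 there was 1 of the 51 genes, Atp6v0e (-0.23, SE 0.10), against 4.38% of all genes. The values ran from -0.23 (Atg16l1) to 0.87 (Atp6v1g2), with a median SE of 0.15, and 26 of 51 genes were above 0. Tfeb had -0.09, Ctsd -0.07 and Ctso 0.09 on the log2 scale.

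Whether anti-LAIR-1 acted differently with and without anti-CD3 was tested as an interaction over all 12 libraries. None of the 52 genes passed, while 2.07% of 9223 genes did (1.82% higher). DESeq2 passed none of the 52 genes either, 14 of which had no adjusted p there, with an unadjusted p under 0.05 for 8. Genes with an unadjusted p under 0.05 were 8 of 52, against 12.2% of all genes, namely Atp6v1g2, Atp6v0e, Atp6v1d, Atg2a, Ctso, Tfeb, Atp6v0b and Ctsd. The lowest adjusted p was that of Atp6v1g2 (-2.34, SE 0.69, adjusted p 0.0782, edgeR). The median was 0.15 over the 52 genes and 0.04 over all genes, and 39 (75.0%) were above 0, against 55% of all genes. The same pattern is seen in the changes with anti-CD3 themselves. Of the 23 genes that fell in both settings, 22 fell less in size with anti-LAIR-1, the exception being Ctsl, and of the 10 that rose in both, 4 rose less. This is a description and adds no test to the interaction. The same count was not made over all genes, so it does not show a trait of these genes in particular.

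Other genes of the same pathways were read from lists made by function, also with earlier results of these data known. Of 57 other lysosome genes in the table, 45 were tested with anti-CD3 in isotype wells, and 5 rose and 28 fell (73.3%, against the 71.3% of all genes), with a median log2 fold change of -1.0. Large falls were those of Sgsh, which degrades heparan sulphate (-3.21, SE 0.47), and Grn, progranulin (-3.06, SE 0.43). With anti-LAIR-1, 6 of 50 rose and 31 fell, among them Arsb, arylsulphatase B (-3.42, SE 0.64), and Grn (-2.73, SE 0.39).

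Of the other autophagy genes 32 of 34 were tested, and 2 rose and 18 fell with isotype and 3 rose and 17 fell with anti-LAIR-1. This is 62.5% in both settings, against 71.3% and 72.7% of all genes. Tecpr1, which links autophagosomes to lysosomes, changed by -4.16 (SE 0.14) and -3.22 (SE 0.13), the autophagy receptor Calcoco1 by -3.21 (SE 0.21) and -2.35 (SE 0.14), and Pink1, the kinase that marks damaged mitochondria, by -2.95 (SE 0.14) and -2.20 (SE 0.13). A further list held the genes of mTORC1, its lysosomal regulators and the relatives of TFEB. Of 18 tested, 5 rose and 2 fell with isotype (38.9%, against 71.3% of all genes) and 6 rose and 4 fell with anti-LAIR-1 (55.6%, against 72.7%). Rheb, the GTPase that turns mTORC1 on, rose by 0.97 (SE 0.11) and 1.08 (SE 0.10), from 71.2, 68.2 and 64.7 CPM to 145, 139 and 129 CPM with isotype. Slc38a9, the arginine sensor of the lysosomal membrane, changed by -1.54 (SE 0.20) and -1.66 (SE 0.16), and Lamtor2, a subunit of the Ragulator scaffold, by -1.46 (SE 0.21) and -0.90 (SE 0.17).

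With anti-CD3 present, anti-LAIR-1 raised 1 of 48 other lysosome genes and 2 of 32 other autophagy genes by edgeR's test, and no other gene of the 3 lists passed. Over the 3 lists this is 3.03% of 99 genes, against 5.76% of all genes. Laptm5, a lysosomal protein of blood cells that promotes degradation of the T cell receptor ζ chain, had 195, 179 and 184 CPM with isotype and 283, 292 and 274 CPM with anti-LAIR-1 (0.60, SE 0.07, adjusted p 6.2e-05, edgeR). Bnip3l, a receptor for the removal of mitochondria, had 49.3, 48.3 and 56.6 CPM and 71.9, 81.8 and 93.2 CPM (0.66, SE 0.11, adjusted p 0.00155, edgeR). Tecpr1 had 14.2, 11.2 and 11.1 CPM and 16.6, 19.8 and 28.0 CPM (0.81, SE 0.21, adjusted p 0.0277, edgeR). The groups did not overlap for any of these genes, which were picked by the test on these same libraries. The call of Tecpr1 ended without anti-CD3 isotype of mouse 2 (0.76) or 3 (0.73) or anti-CD3 anti-LAIR-1 of mouse 2 (0.85) or 3 (0.58). All remained far below the unstimulated isotype libraries, which had at least 482 CPM of Laptm5, 341 CPM of Bnip3l and 194 CPM of Tecpr1.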

How the data were processed

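The study sequenced RNA of naïve CD8+ T cells by an adapted CEL-seq protocol (tags near the polyadenylated end) on a NextSeq 500. The authors used BWA MEM to align the second read to reference transcripts of mouse build mm10, dropped reads with several equally good positions, and deposited raw read counts per gene symbol, not normalised. Collapsing of molecular identifiers and the use of strand were not given in the sources used here.

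Groups came from the titles of the samples. Counts were compared with edgeR 4.0.16 (R 4.3.3), with TMM scaling, filterByExpr, the quasi-likelihood test and p-values adjusted over every gene tested (Benjamini-Hochberg), at a threshold of 0.05. P-values measure the spread between libraries of 3 mice. Comparisons of a pair of groups used their 6 libraries, and the interaction used all 12. CPM was scaled by TMM over all 12 libraries. SE is the size of the log2 fold change divided by the root of F. The study named DESeq2, which was run here in version 1.42.0 as an alternative. Other alternatives were other scalings and filters, thinned counts and leaving out each library. The edgeR and DESeq2 fits of each comparison, with and without the mouse as a block, were tested on simulated data. The mouse numbers pair the libraries, because cells of each mouse were split over the wells. Across genes, deviations from the group means had a mean correlation of 0.0490 for 2 libraries from 1 mouse, over 4 comparisons. The value for 2 libraries from different mice, -0.0245, largely follows from this, because deviations within a group sum to 0.

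The rule for the 61 genes, their roles and the other pathway lists were chosen with earlier results of these data known. Every gene called in any comparison is named, as are the 13 genes listed by name whether called or not, and in each role the called genes with the largest and second largest change have their values per library. From the other lists, the 3 called genes with the largest change in each comparison are named, except for results not reported here, and their alternatives were added after seeing the data. All 61 symbols matched protein-coding genes of GENCODE M21 (GRCm38), and 60 were on the same chromosome in table and annotation.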

Additional observations from a re-analysis of the deposited data

Results flagged for a closer look

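The effect of anti-LAIR-1 with anti-CD3 was compared with its effect without anti-CD3 in 1 fit over all 12 libraries. None of the 52 genes tested passed in that test of the difference, while 4 of 100 genes of the other lists did (4%), against 2.07% of all 9223 genes. These 4 are given because their response to anti-LAIR-1 depended on anti-CD3 by this test.

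Bnip3l, the mitochondrial receptor, had a difference of 0.75 on the log2 scale (SE 0.14, adjusted p 0.00277, edgeR). Its value was 0.66 with anti-CD3 and -0.09 without. The call held in all 21 alternatives. Laptm5 had a difference of 0.53 (SE 0.11, adjusted p 0.00924, edgeR), from 0.60 with and 0.07 without anti-CD3, and also held in all 21 alternatives.

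Tecpr1 had a difference of 0.91 (SE 0.21, adjusted p 0.0153, edgeR), from 0.81 with and -0.10 without anti-CD3. It passed in 17 of 21 alternatives, and not without anti-CD3 isotype of mouse 2 (0.86) or 3 (0.84), without anti-CD3 anti-LAIR-1 of mouse 3 (0.70) or with thinned counts (0.80). Ulk2, a relative of ULK1, had a difference of 0.94 (SE 0.24, adjusted p 0.0330, edgeR), from 0.69 with anti-CD3, which did not pass by itself (adjusted p 0.0505), and -0.25 without. It passed in 14 of 21 alternatives. The calls lost were those without unstimulated isotype of mouse 1 (0.79), unstimulated anti-LAIR-1 of mouse 2 (0.90) or 3 (0.91), anti-CD3 isotype of mouse 1 (0.79) or 3 (0.90), and anti-CD3 anti-LAIR-1 of mouse 2 (0.93) or 3 (0.82).

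In wells without anti-CD3 the ranges of Ulk2 overlapped, with 91.3, 69.8 and 71.7 CPM with isotype and 71.5, 62.4 and 63.2 CPM with anti-LAIR-1. With anti-CD3 it had 10.3, 19.1 and 14.2 CPM with isotype and 20.0, 24.2 and 28.2 CPM with anti-LAIR-1, without overlap.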

How the results depend on the processing

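The counts of genes called with anti-CD3 stayed within 1.5 times the reported ones in every alternative. Leaving out 1 library in turn gave 33 to 37 genes with isotype and 36 to 40 with anti-LAIR-1, against 36 and 39. Of these, 29 and 32 genes were called in every alternative that could fit them, and 7 and 7 lost the call in at least 1. No called gene changed sign in any alternative. For anti-LAIR-1 with anti-CD3, against 2 genes reported, DESeq2 gave 0, DESeq2 with the mouse as replicate block 0, thinned counts 0 and no filter on low counts 4, and leaving out 1 library gave 0 to 1. No filter gave 1 gene in the interaction (Atp6v1g2), and leaving out 1 library gave 0 to 1 (Tfeb, without anti-CD3 isotype of mouse 3). Ctso and Atp6v1d each passed in 7 of 16 alternatives, with adjusted p up to 0.196 and 0.112 when 1 library was left out. The cause of these losses was not tested, except that leaving out libraries or thinning leaves fewer samples or counts. With edgeR and the replicate block, 37, 39 and 2 genes were called with anti-CD3 in isotype wells, with anti-CD3 in anti-LAIR-1 wells and with anti-LAIR-1 on top of anti-CD3, and beyond Lamp2, Ctso and Atp6v1g2 the block changed no call in edgeR. Library totals alone gave 8 higher and 27 lower with isotype and 13 and 27 with anti-LAIR-1, and moved the medians of all genes to -0.12 and -0.15. With the upper quartile the rises of Atg5 (isotype), Atg3 and Atg2b (anti-LAIR-1) did not pass, while Atp6v0a2 (both settings) and Atg4a, Atp6v1g1 and Wipi2 (anti-LAIR-1) passed as lower, the last 2 also with library totals alone. Genes with few counts, such as Tfeb, Atg10 and Atp6v1g2, carry SE of 0.36 to 0.66 with anti-CD3, so that moderate changes in them could not be resolved.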
